A study of Homo sapiens with 6 samples.

Results

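The contacts described here are those of 7 genes of the Hippo pathway's transcriptional arm: the coactivator genes YAP1 and WWTR1 (the gene of TAZ), the DNA-binding partner TEAD1, and the YAP target genes CYR61 (now CCN1), CTGF (now CCN2), ANKRD1 and AMOTL2. The genes were chosen by name. A loop was assigned to a gene when either of its anchors overlapped the gene with 5 kb added on each side, on the hg19 build. That rule took 1665 of the 736589 loops listed over 6 libraries, and 6 of the 7 genes had at least 1 loop in every library. ANKRD1 had none.

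The Hippo pathway is a kinase cascade that holds YAP and TAZ in the cytoplasm. When the cascade is off, both coactivators enter the nucleus and bind TEAD factors, which contact DNA mostly at distal enhancers, often beside AP-1 sites, and these enhancers reach their target promoters through looping. CYR61, CTGF and ANKRD1 are widely used readouts of that activity. AMOTL2 is both a target and a scaffold protein that binds YAP.

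Contacts were measured by HiChIP, which ligates DNA ends that lie close together in the nucleus and then enriches, with an antibody, the fragments that carry a chosen mark or protein. The cells were G401, an established human rhabdoid tumour line, in a stable derivative with an inducible SMARCB1, maintained in Tet-free serum. SMARCB1 is a core subunit of the SWI/SNF (BAF) chromatin remodelling complex. The day 0 cells were labelled SMARCB1 -/- and were profiled with an antibody to K27Ac, the acetylated histone H3 lysine that marks active enhancers and promoters (2 libraries). The day 3 cells were labelled SMARCB1 +/+ after doxycycline at 1 μg/ml, and were profiled for K27Ac (2 libraries) and for ARID1A, a SWI/SNF subunit (2 libraries). SMARCB1, doxycycline and time changed together between day 0 and day 3 and cannot be told apart. No label ties the 2 libraries of a group to separate cultures, so the p-values reflect only how far such libraries vary, and that variation may be technical.

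The libraries held 253502 and 301703 paired-end tags (PETs, read pairs that join 2 anchors) at day 0, 929128 and 982141 for H3K27ac at day 3, and 435210 and 467487 for ARID1A. Levels are given as CPM, PETs of a gene scaled to a common library total of 1e+06. The 7 genes together took 0.342% and 0.363% of the PETs at day 0, 0.327% and 0.328% for H3K27ac at day 3, and 0.306% and 0.286% for ARID1A. Anchors were listed separately for each group, and stretches lacking one went unmeasured in that group. A gene's count therefore also moves with how many of its partners were listed. For that reason each change is given on all listed loops and again on loops whose anchors were called in both groups compared.

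TEAD factors bind DNA at a short core sequence. To show which of these promoters hold it, the 250 bases before the start site are given for 5 genes. They come from the RefSeq table of build GRCh38.p14, which matched 5 of the 7 genes. Each runs 5′ to 3′ in the gene's direction, and capitals mark the TEAD core GGAATG (or CATTCC, its reverse complement) and the AP-1 core TGANTCA, searched on both strands.
CTGF, chr6:131951373-131951622, minus strand: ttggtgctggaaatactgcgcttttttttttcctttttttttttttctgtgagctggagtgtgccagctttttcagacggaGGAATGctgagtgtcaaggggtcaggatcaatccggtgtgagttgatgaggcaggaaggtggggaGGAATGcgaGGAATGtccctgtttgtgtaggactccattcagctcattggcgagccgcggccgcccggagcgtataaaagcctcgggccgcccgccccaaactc
ANKRD1, chr10:90921088-90921337, minus strand: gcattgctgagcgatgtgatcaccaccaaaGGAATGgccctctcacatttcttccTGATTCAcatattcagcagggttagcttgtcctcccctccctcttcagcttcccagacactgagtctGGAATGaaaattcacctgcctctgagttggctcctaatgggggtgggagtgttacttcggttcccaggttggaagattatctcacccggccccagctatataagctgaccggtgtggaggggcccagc
AMOTL2, chr3:134374448-134374697, minus strand: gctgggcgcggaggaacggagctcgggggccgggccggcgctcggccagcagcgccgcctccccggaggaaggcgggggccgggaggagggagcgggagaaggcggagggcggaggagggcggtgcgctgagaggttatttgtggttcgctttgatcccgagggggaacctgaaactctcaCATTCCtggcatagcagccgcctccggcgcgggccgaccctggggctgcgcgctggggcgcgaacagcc
YAP1, chr11:102110197-102110446, plus strand: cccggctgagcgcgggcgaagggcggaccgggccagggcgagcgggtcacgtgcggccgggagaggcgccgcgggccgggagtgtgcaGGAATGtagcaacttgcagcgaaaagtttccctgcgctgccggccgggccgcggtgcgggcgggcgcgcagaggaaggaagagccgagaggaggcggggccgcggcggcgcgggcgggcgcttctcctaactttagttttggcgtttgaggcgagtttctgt
WWTR1, chr3:149658026-149658275, minus strand: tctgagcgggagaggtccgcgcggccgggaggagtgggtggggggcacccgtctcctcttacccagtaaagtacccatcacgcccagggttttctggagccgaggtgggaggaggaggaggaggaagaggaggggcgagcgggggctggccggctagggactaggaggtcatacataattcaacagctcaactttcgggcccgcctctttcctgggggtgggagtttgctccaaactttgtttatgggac
CTGF held 3 TEAD cores, at 169, 104 and 95 bases before the start. ANKRD1 held 2, at 220 and 128 bases before the start, and the AP-1 core of the set, at 195 bases. The second of the 2 AMOTL2 start sites in the table held 1 TEAD core, at 69 bases before the start. The first AMOTL2 start site, not shown, held no match to either core in this window. The YAP1 promoter held 1 TEAD core, at 162 bases. The WWTR1 promoter shown, the second of 2 in the table, held no match to these letters in this window, and the first held none either. Over all 35114 promoters of the table, 11.9% held the TEAD core and 6.57% the AP-1 core in the same window. A match is a string of letters and was not tested as a binding site.

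In both H3K27ac groups AMOTL2 had the most contacts of the 7 genes for its length. Divided by the length of the gene window, its level was 88.4 CPM per kb at day 0, 55.0 CPM per kb for H3K27ac at day 3 and 23.7 CPM per kb for ARID1A. CYR61 followed in the H3K27ac groups at 22.5 and 31.0 CPM per kb and stood above AMOTL2 for ARID1A at 28.3 CPM per kb. The other genes with loops lay between 0.0795 and 3.79 CPM per kb in every group. Anchors reached beyond short windows and filled little of long ones. The ARID1A anchor of CYR61 was 24236 bp wide against a window of 13.2 kb. At day 0 the YAP1 anchor covered 8579 bp of a 133 kb window. These levels and their order therefore depend on window length as well as on contacts.

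**Figure D1:**
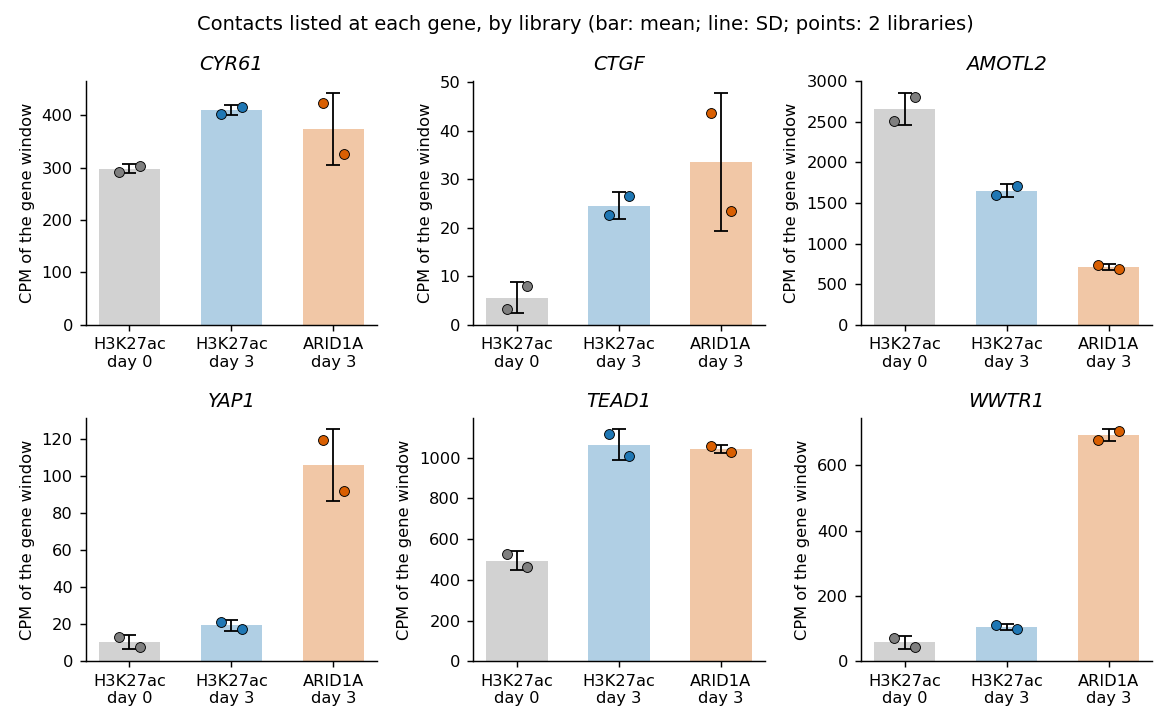
Level of each gene window in CPM (vertical axis) in the 2 libraries of each group (points), with the mean (bar) and SD (line). AMOTL2 falls from a mean of 2658 to 1654 CPM between day 0 and day 3, TEAD1 rises from 494 to 1063 CPM, and WWTR1 stands at 691 CPM for ARID1A against 105 CPM for H3K27ac at day 3.

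The first comparison asked how the H3K27ac contacts of these genes differed 3 days after SMARCB1 was switched on. AMOTL2, the gene with most contacts, lost contacts relative to the rest of the genome, and TEAD1 gained them. CYR61, CTGF and WWTR1 were also called higher on all listed loops, and YAP1 was not called. Of the 6 gene windows tested, 4 were higher and 1 was lower, where 31.2% of all 8443 windows tested were called higher and 29.8% lower (edgeR's quasi-likelihood test with Benjamini-Hochberg adjustment over all windows, called under 0.05). The windows other than the genes are 25 kb tiles of the genome counted by the same rule, and only windows with an anchor in both groups were tested. The gene windows run from 13.2 to 280 kb. A long gene therefore takes in anchors listed in only 1 group, where a tile holding no other anchor is left out. For the long genes the shares and median over all windows are thus not a like background. The median log2 fold change was 0.78 over the 6 genes and 0.04 over all windows. CTGF and YAP1 passed the minimum of 10 PETs in 2 libraries through the day 3 libraries alone, so a rise was built into their entry, and only the other 4 genes reached it in both groups. On loops whose anchors were called in both groups, 4 genes could be tested. Relative to the PETs of that set, TEAD1 was higher, although its CPM overlapped between the days, AMOTL2 was lower, and CYR61 and WWTR1 were not called.

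The second comparison set ARID1A contacts against H3K27ac contacts at day 3, to show where the remodelling complex and the mark differ in the contacts they hold. On all listed loops WWTR1 and YAP1 had more ARID1A than H3K27ac contacts, and AMOTL2 had fewer. CYR61, CTGF and TEAD1 were not called. All 6 genes reached the minimum in both groups, 2 were higher and 1 was lower, where 38.0% of all 14131 windows tested were called higher and 38.9% lower. The median log2 fold change was 0.28 over the genes and -0.02 over all windows. The limit of window length given above holds for these values too. On loops whose anchors were called in both groups, and relative to the PETs of that set, WWTR1 stayed higher and AMOTL2 lower. TEAD1 was called higher there, although its CPM on those loops was lower for ARID1A. YAP1 turned to -1.17 ± 0.60 and was not called (edgeR adjusted p = 0.0799), nor were CYR61 and CTGF. The H3K27ac libraries of day 3 enter both comparisons. These are different antibodies, so a difference is one between enriched contacts and not between cell states. For a single gene, an exact two-sided permutation test of CPM over 2 against 2 libraries gives p = 0.333 at best, which every non-overlapping pair of groups reached.

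**Figure D2:**
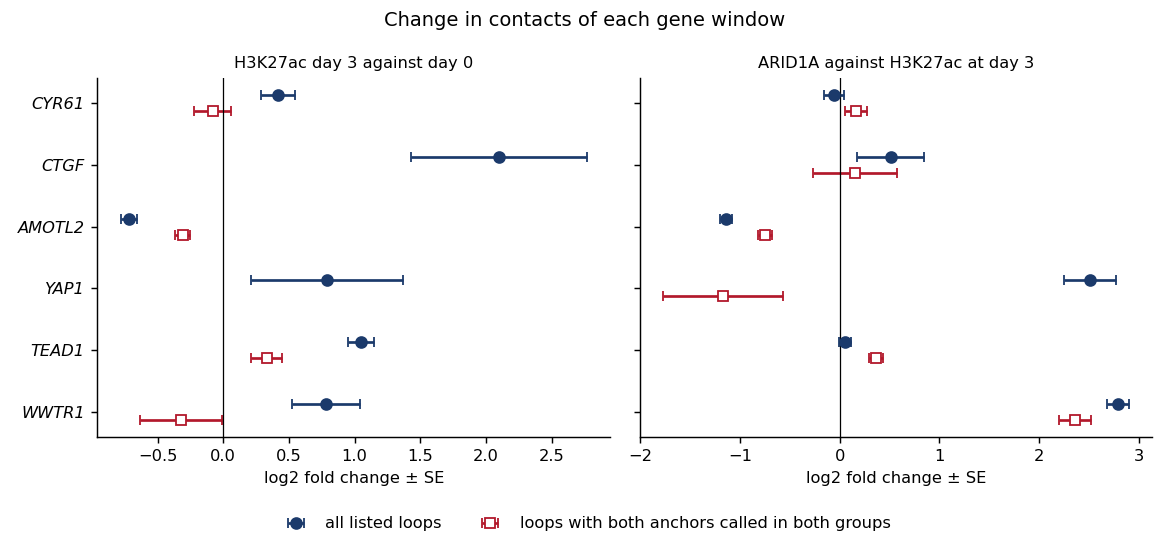
Log2 fold change with its standard error (horizontal axis) of each gene window in the 2 comparisons, on all listed loops (filled circles) and on loops with both anchors called in both groups compared (open squares). The open squares of CYR61 and WWTR1 cross to the other side of 0 in the first comparison, as does that of YAP1 in the second, while WWTR1 stays at 2.36 in the second. CTGF and YAP1 have no open square in the first comparison.

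CYR61 encodes a secreted matricellular protein and is a direct YAP-TEAD target. Its window held 88 and 77 PETs at day 0, or 292 and 304 CPM. The H3K27ac libraries of day 3 held 374 and 409 PETs, or 403 and 416 CPM. The ARID1A libraries held 184 and 152 PETs, or 423 and 325 CPM. The 2 H3K27ac groups did not overlap, and the ARID1A libraries lay on both sides of the day 3 H3K27ac values. On all listed loops CYR61 was higher at day 3 by 0.42 ± 0.13 (log2, SE; edgeR adjusted p = 0.00294), and the call ended with DESeq2 (adjusted p = 0.0844) and against 100 kb tiles (0.14, adjusted p = 0.336). All PETs at day 0, but only 50.0% and 48.4% of those at day 3, lay in loops whose anchors were called in both groups. On those loops the level was 292 and 304 CPM at day 0 and 201 and 202 CPM at day 3, and the fitted change was -0.08 ± 0.14 (edgeR adjusted p = 0.699). ARID1A differed from H3K27ac by -0.06 ± 0.10 (edgeR adjusted p = 0.584), and without H3K27ac day 3 replicate 1 the value was -0.25 (adjusted p = 0.0279).

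A single anchor of 21800 bp, chr1:86033091-86054891, covered the CYR61 start site and was listed with the same ends at day 0 and day 3. Its partners lay mostly upstream, toward the side of the neighbouring gene DDAH1: 94.3% and 90.9% of the PETs at day 0, 84.5% and 81.4% for H3K27ac at day 3, and 91.3% and 90.1% for ARID1A. The strongest contact of all 3 groups joined the anchor to a segment about 55 kb upstream, chr1:85977835-86003735 after merging, with 58 and 51 PETs at day 0, 108 and 110 at day 3, and 32 and 36 for ARID1A. This contact took 65.9% and 66.2% of the gene's PETs at day 0. Its change at day 3 was -0.31 ± 0.18 (edgeR adjusted p = 0.243), and ARID1A differed from H3K27ac by -0.03 ± 0.20 (adjusted p = 0.930). Scaled by whole-library totals instead, it was called lower at day 3 (-0.78, adjusted p = 0.000184) and lower for ARID1A (-0.60, adjusted p = 0.00917). A partner about 262 kb upstream held 45 and 48 H3K27ac PETs at day 3 and 15 and 13 ARID1A PETs, and it had no anchor at day 0. A partner about 116 kb upstream held 13 and 12 PETs at day 0, then 35 and 26 at day 3, and had no ARID1A anchor. Of the 6 CYR61 loops testable between day 0 and day 3, edgeR called 0 at an adjusted p under 0.05 and 1 at an unadjusted p under 0.05, and DESeq2 called 0, where edgeR called 8.35% of all 16642 loops higher and 6.70% lower. Of the 13 testable between the antibodies at day 3, 2 were higher for ARID1A and 1 was lower, where 14.5% of all 28338 loops were called higher and 18.8% lower.

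**Figure D3:**
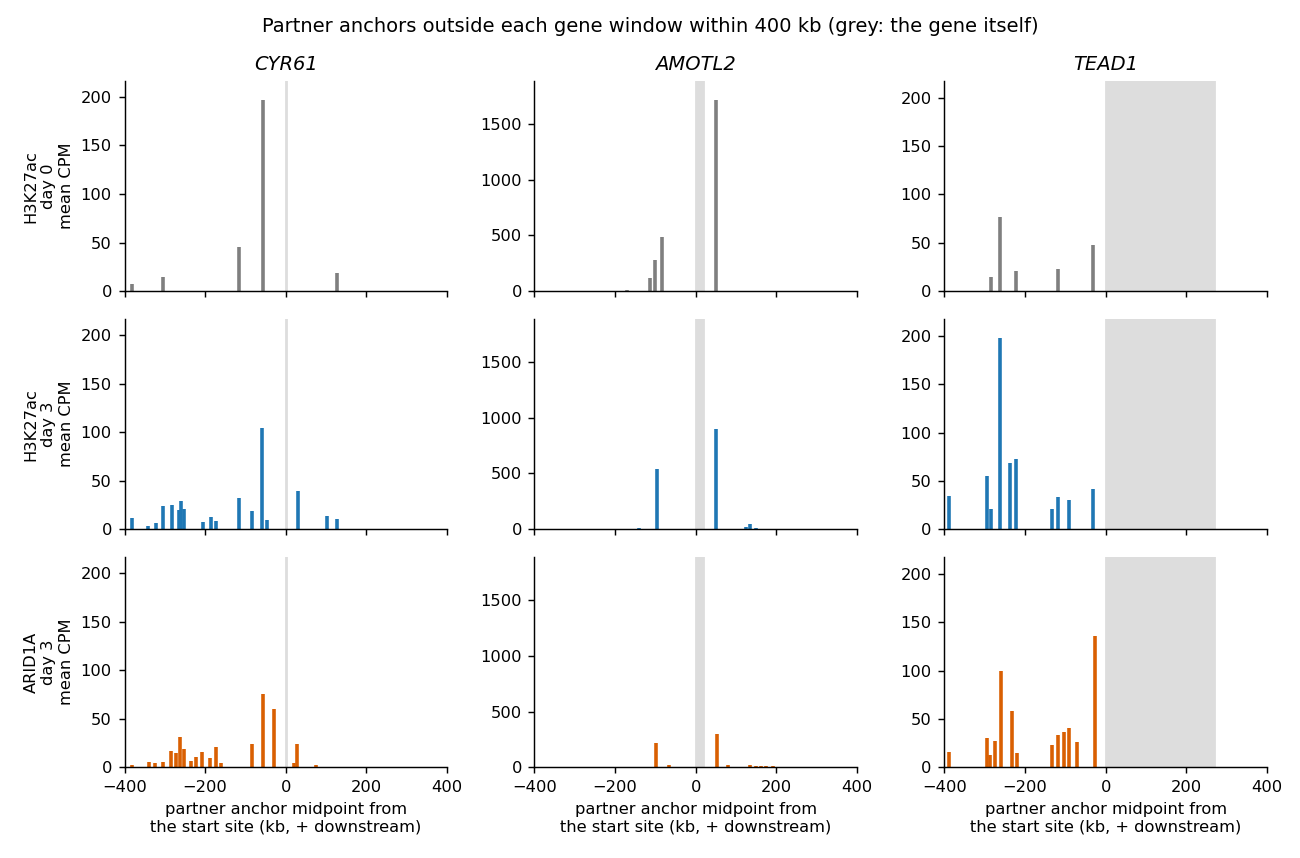
Mean CPM (vertical axis) of each partner anchor outside the gene window, by the distance of its midpoint from the start site in kb (horizontal axis, positive downstream), for CYR61, AMOTL2 and TEAD1 in the 3 groups. CYR61 and TEAD1 have their partners mainly upstream in each group, and more partners are listed at day 3. AMOTL2 keeps a downstream and an upstream partner region in all 3 groups, with the downstream one at a mean of 1712 CPM at day 0 and 898 CPM at day 3.

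CTGF encodes a matricellular protein related to CYR61 and had few contacts. Its window held 1 and 2 PETs at day 0, 21 and 26 for H3K27ac at day 3, and 19 and 11 for ARID1A. In CPM these were 3.31 and 7.89, then 22.6 and 26.5, then 43.7 and 23.5. The day 0 and day 3 values did not overlap. The ratio of day 3 to day 0 over the PETs of both libraries was 4.55, with an exact 95% interval of 1.46 to 22.9 that covers counting error only. The fitted change was 2.10 ± 0.67 (edgeR adjusted p = 0.00410), it was lost without day 0 replicate 1 (1.58, adjusted p = 0.113) and with DESeq2 (adjusted p = 0.113), and CTGF entered no test once every library was thinned to the smallest. ARID1A differed from H3K27ac at day 3 by 0.51 ± 0.34 (edgeR adjusted p = 0.165), and by 0.92 without ARID1A replicate 2 (adjusted p = 0.0420). An anchor covered the start site in every group, 8036 bp wide at day 0, 11251 bp at day 3 and 17741 bp for ARID1A. At day 0 the listed partners lay about 845 and 861 kb away. At day 3 the main partner was about 112 kb upstream, with 10 and 10 H3K27ac PETs and 3 and 3 ARID1A PETs, and the segment had no anchor at day 0. Partners about 133 and 181 kb upstream held 4 and 6 H3K27ac PETs each at day 3. The ARID1A libraries held 4 and 1 PETs at the nearer and 2 and 3 at the farther.

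ANKRD1, which encodes a cardiac ankyrin repeat protein, had no listed anchor and no PET in any library, although its promoter held 2 TEAD cores. In all 3 groups the nearest anchor above the gene started 485 kb from it, at chr10:93166431. Below the gene the nearest anchor ended 1208 kb away at day 0, 1194 kb away for H3K27ac at day 3 and 584 kb away for ARID1A. The gap without anchors thus spanned between 1079 and 1703 kb, and a gene inside such a gap has no measured level. Loops passing over the gene from one side of the gap to the other numbered 0 at day 0, with 2 H3K27ac and 4 ARID1A loops at day 3, counting each library's entries.

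AMOTL2 encodes an angiomotin-like scaffold that holds YAP at cell junctions. Its window held 759 and 710 PETs at day 0, 1482 and 1682 for H3K27ac at day 3, and 320 and 322 for ARID1A. In CPM these were 2516 and 2801, then 1595 and 1713, then 735 and 689. The groups did not overlap, and the order was day 0, then H3K27ac at day 3, then ARID1A. AMOTL2 was 1.65-fold lower at day 3 than at day 0, a change of -0.72 ± 0.06 (edgeR adjusted p = 1.09e-21). On loops with anchors called in both groups the change was -0.31 ± 0.06 (adjusted p = 2.08e-05), and 90.0% and 93.5% of the day 3 PETs lay in such loops. ARID1A contacts were 2.20-fold below H3K27ac contacts at day 3, a difference of -1.14 ± 0.06 (edgeR adjusted p = 1.4e-63), or -0.75 ± 0.07 on loops with anchors in both groups (adjusted p = 7.49e-27). Both window differences kept their direction and call under every alternative run on the windows.

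The AMOTL2 anchor was nearly as wide at day 0, 35914 bp, as at day 3, 35774 bp, and its contacts ran both ways. Its strongest listed contact joined chr3:134066604-134102518 to the adjoining anchor chr3:134025645-134061746, which begins about 33 kb downstream of the start site, beyond the gene's end. It held 494 and 453 PETs at day 0, 65.1% and 63.8% of the gene's total, and 796 and 923 PETs at day 3. With anchors merged only from the H3K27ac groups, this contact fell by 0.41 on the log2 scale, with an SE of 0.08 (edgeR adjusted p = 8.02e-06), and the contact to the region about 75 to 117 kb upstream changed by -0.19 ± 0.09 (adjusted p = 0.175). In the merge over all 6 libraries the ARID1A anchors joined the gene's anchor and its neighbour into 1 segment of 77267 bp, whose change at day 3 was -0.15 ± 0.06 (adjusted p = 0.0441). That call was lost without any 1 of the 4 libraries, with values from -0.18 to -0.10, and over anchors of similar width in both groups the value was 0.03 (adjusted p = 0.817). From this merged segment, the contact to the upstream region, chr3:134169303-134216316, held 571 and 502 PETs at day 0, 1020 and 1096 at day 3 and 181 and 176 for ARID1A. It fell by 0.33 at day 3, with an SE of 0.08 (edgeR adjusted p = 0.000521), and this call too was lost without any 1 library, where the values lay between -0.36 and -0.16. Over anchors of similar width the value was 0.04 (adjusted p = 0.825). ARID1A was below H3K27ac there by -0.91 ± 0.12 (adjusted p = 5.08e-13).

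Contacts of the merged AMOTL2 segment with 3 regions between about 706 and 911 kb downstream were higher at day 3. The farthest, chr3:133164424-133201301, held 4 and 1 PETs at day 0, then 54 and 70 at day 3, a change of 3.28 ± 0.45 (edgeR adjusted p = 3.12e-11), and 8 and 10 PETs for ARID1A. It met the minimum of 4 PETs in 2 libraries through day 3, with 1 day 0 library reaching 4, so a rise was built into its entry. The region about 805 kb away held 5 and 4 PETs at day 0, then 57 and 57 at day 3, a change of 2.33 ± 0.40 (adjusted p = 2.16e-07). The called width of these partners moved with the result: the farthest widened from 3429 to 31516 bp, and the one about 805 kb away went from 5906 to 19500 bp. The part of width in the rise was not tested. When every library was thinned to the smallest, edgeR called 0 of the 6 AMOTL2 loops testable between the days. The farthest contact then gave 2.95 (edgeR adjusted p = 0.0676). With anchors merged from the H3K27ac groups only, the gene's own anchor held 1 and 0 PETs at day 0, then 14 and 22 at day 3 with that region (adjusted p = 0.00134). In that merge the other regions were not called: the one about 805 kb away held 3 and 4 PETs, then 22 and 24 (1.43 ± 0.53, adjusted p = 0.0541), and the one about 706 kb away held 4 and 2 PETs, then 5 and 6 (-0.38 ± 0.72, adjusted p = 0.782). A partner about 135 kb downstream held 96 and 80 H3K27ac PETs at day 3 and 21 and 19 ARID1A PETs, and it had no anchor at day 0. Of the 13 AMOTL2 loops testable between the antibodies at day 3, 7 were lower for ARID1A by edgeR and 2 by DESeq2, where edgeR called 18.8% of all 28338 loops lower and 14.5% higher. Of the 7, 4 did not reach 4 PETs in both ARID1A libraries. In the other direction both tools called 0, and edgeR found 0 at an unadjusted p under 0.05.

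YAP1 encodes the coactivator YAP, and its window held few H3K27ac contacts: 4 and 2 PETs at day 0, then 20 and 17 at day 3, against 52 and 43 for ARID1A. In CPM these were 13.3 and 7.89, then 21.5 and 17.3, then 119 and 92.0. The 3 groups did not overlap. The change between day 0 and day 3 was 0.79 ± 0.58 (edgeR adjusted p = 0.241). ARID1A contacts were 5.70-fold above H3K27ac contacts at day 3, a difference of 2.51 ± 0.26 (edgeR adjusted p = 3.27e-20). Only 5.77% and 4.65% of the ARID1A PETs lay in loops with anchors called in both groups, 3 and 2 PETs, and on those loops the difference was -1.17 ± 0.60 (adjusted p = 0.0799). The ARID1A excess thus lay in contacts with segments that had no H3K27ac anchor.

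The YAP1 start site was covered by an anchor in every group, 8579 bp wide at day 0, 13177 bp for H3K27ac at day 3 and 8850 bp for ARID1A. The gene window had 1 anchor at day 0, 2 at day 3 and 4 for ARID1A. The main H3K27ac partner lay about 236 kb from the start site, downstream, on the side of the neighbouring gene BIRC3, and held 2 and 2 PETs at day 0, 11 and 7 at day 3, and 0 and 1 for ARID1A. Its change at day 3 was within error (edgeR adjusted p = 0.504). For ARID1A, the strongest contact joined segments about 116 and 132 kb from the start site with 9 and 10 PETs, and the start site reached the farther of them with 8 and 2 PETs. Neither segment had an H3K27ac anchor at either day. Over all its listed loops the start-site anchor held 16 and 9 ARID1A PETs, or 36.8 and 19.3 CPM. For H3K27ac at day 3 it held 21.5 and 16.3 CPM. Over the loops tested, whose anchors were called in both groups, it was lower for ARID1A by -1.45 ± 0.64 (edgeR adjusted p = 0.0424). Those loops held 2 and 2 ARID1A PETs at this anchor against 20 and 16 for H3K27ac. The start-site anchor passed the minimum through H3K27ac alone, so the lower direction was built into its entry. Without either ARID1A library the values were -1.49 and -1.38.

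WWTR1 encodes TAZ, the paralogue of YAP. Its window held 22 and 11 PETs at day 0, 103 and 98 for H3K27ac at day 3, and 295 and 329 for ARID1A. In CPM these were 72.9 and 43.4, then 111 and 99.8, then 678 and 704. The 3 groups did not overlap. The change from day 0 to day 3 was 0.78 ± 0.26 (edgeR adjusted p = 0.00612), and it was lost without day 0 replicate 2 (0.46, adjusted p = 0.216), with DESeq2 (adjusted p = 0.120) and against 100 kb tiles (0.50, adjusted p = 0.0873). On loops with anchors called in both groups, which held 34.0% and 30.6% of the day 3 PETs, it was -0.32 ± 0.31 (adjusted p = 0.432). ARID1A contacts were 6.93-fold above H3K27ac contacts at day 3, a difference of 2.79 ± 0.11 (edgeR adjusted p = 9.58e-108). On loops with anchors called in both groups it was 2.36 ± 0.16 (adjusted p = 3.29e-46). This difference kept its direction and call under every alternative run on the windows, between 2.36 and 4.59.

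The WWTR1 window had 1 anchor at day 0, and 3 H3K27ac anchors and 8 ARID1A anchors at day 3, which covered 6264, 13662 and 72768 bp. The gene's high end, taken here as the start site for distances, was covered only by an ARID1A anchor, chr3:149450686-149459429. The H3K27ac anchor present in both H3K27ac groups lay 138 to 144 kb from the gene's low end at day 0 and 139 to 144 kb at day 3. RefSeq's table for GRCh38.p14 places WWTR1 start sites 141 and 186 kb from the low end, and none at the high end. By these distances the site at 141 kb, whose promoter is printed above, lay within that H3K27ac anchor on both days. An ARID1A anchor 134 to 146 kb from the low end, chr3:149369311-149381433, covered it too. The middle of that segment lay around 79 kb from the high end. The ARID1A contacts centred on a segment deep in the gene, chr3:149292136-149315945. Its contact with chr3:149319555-149326235 held 0 and 2 H3K27ac PETs and 23 and 29 ARID1A PETs, a ratio of 55.0 with an exact 95% interval of 14.5 to 467 from counting error alone (edgeR adjusted p = 1.34e-26). Its contact with the segment around 79 kb from the high end, over the site at 141 kb, held 2 and 3 H3K27ac PETs. It held 15 and 15 ARID1A PETs, a difference of 4.14 ± 0.58 (edgeR adjusted p = 6.29e-11). Neither contact reached 4 PETs in an H3K27ac library, so both passed the minimum through ARID1A alone and an ARID1A excess was built into their entry. The deep segment's contact with a region about 43 kb upstream of the gene held 5 and 1 H3K27ac PETs at day 3 and 10 and 5 ARID1A PETs. It differed by 2.90 ± 0.70 (edgeR adjusted p = 0.000338), with only 1 H3K27ac library reaching 4 PETs, so an excess was partly built in. The segment around 79 kb from the high end also contacted that region, with 5 and 5 PETs at day 0, 6 and 6 at day 3, and 1 and 3 for ARID1A. This last contact was not called in either comparison (edgeR adjusted p = 0.301 and 0.954).

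All 3 WWTR1 anchors testable between the antibodies were higher for ARID1A, where 31.5% of all 11052 anchors were called higher. The segment deep in the gene differed by 3.75 ± 0.23 (edgeR adjusted p = 1.63e-57), and it was called 23809 bp wide for ARID1A and 3495 bp wide for H3K27ac. The segment about 131 kb from the high end was 5767 and 5350 bp wide and differed by 2.65 ± 0.28 (adjusted p = 1.76e-19). The third, around 79 kb from the high end, lies by the distances above over the RefSeq start site 141 kb from the low end. It was 12122 and 4817 bp wide and differed by 1.61 ± 0.26 (adjusted p = 2.05e-09). Restricted to contacts between anchors of similar width, no WWTR1 anchor could be tested in this comparison.

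**Figure D4:**
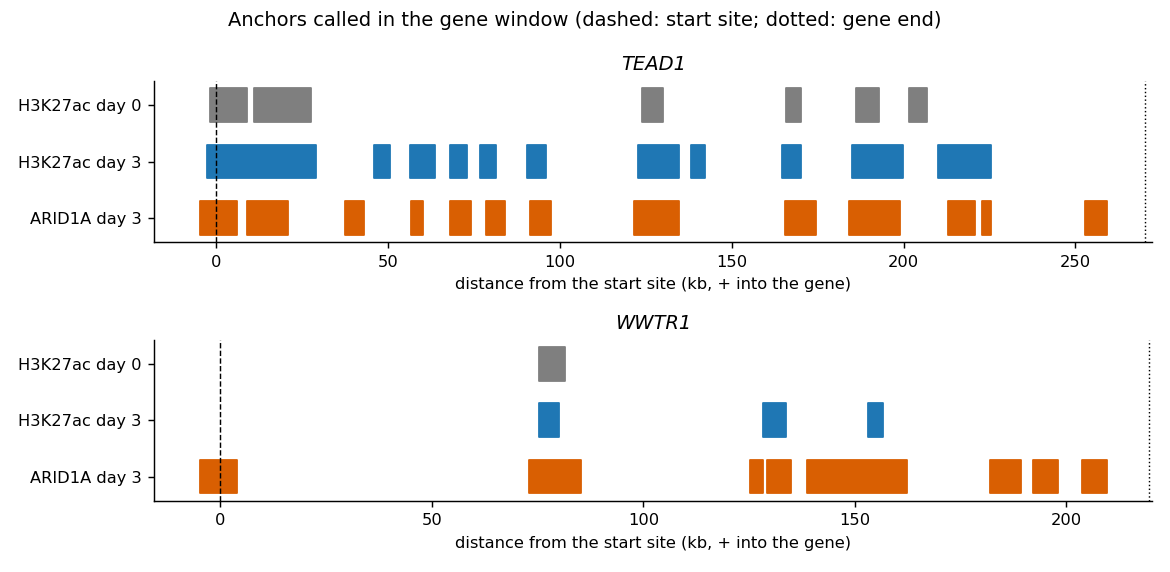
Anchors called in the TEAD1 and WWTR1 windows in each group, placed by distance from the start site in kb (horizontal axis, positive into the gene). TEAD1 has 6 anchors at day 0, and 11 H3K27ac and 13 ARID1A anchors at day 3, and WWTR1 has 1, 3 and 8. The high end of WWTR1, taken as its start site, is covered by an ARID1A anchor alone. The RefSeq start site 141 kb from the low end lies within anchors of all 3 groups.

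TEAD1 encodes a DNA-binding partner of YAP and TAZ. Its window held 159 and 117 PETs at day 0, 1037 and 991 for H3K27ac at day 3, and 460 and 481 for ARID1A. In CPM these were 527 and 462, then 1116 and 1009, then 1057 and 1029. Day 0 lay below both day 3 groups, and the day 3 groups overlapped. TEAD1 was 2.07-fold higher at day 3 than at day 0, a change of 1.05 ± 0.10 (edgeR adjusted p = 5.94e-19). Only 37.2% and 34.6% of the day 3 PETs lay in loops with anchors called in both groups. On those loops the levels overlapped, at 464 and 379 CPM at day 0 and 415 and 349 CPM at day 3, and the fitted change, which is relative to the PETs of that set, was 0.33 ± 0.12 (edgeR adjusted p = 0.0217). ARID1A differed from H3K27ac at day 3 by 0.05 ± 0.06 (adjusted p = 0.419). Without H3K27ac day 3 replicate 2 it differed by -0.18 (adjusted p = 0.00863), and on loops with anchors called in both groups by 0.36 ± 0.07 (adjusted p = 8.33e-07).

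Contacts within the TEAD1 window made up 34.0% and 41.0% of its PETs at day 0, 29.4% and 31.6% for H3K27ac at day 3, and 38.5% and 35.6% for ARID1A. Nearly all others lay upstream, on the side of the neighbouring gene PARVA, and at most 2.70% of the PETs of any library lay downstream. The called anchors covered 49427 bp of the window at day 0, 110324 bp at day 3 and 104105 bp for ARID1A. Of 4 TEAD1 anchors testable between day 0 and day 3, 3 were higher by edgeR and 2 by DESeq2, where 20.7% of all 6251 anchors were called higher and 18.8% lower. Of those 3, only the start-site anchor reached the minimum of 10 PETs in both day 0 libraries. Both tools called 0 lower, and edgeR found 0 lower at an unadjusted p under 0.05. The start-site anchor, chr11:12691214-12725087, changed by 0.55 ± 0.13 (adjusted p = 0.000317), by 0.36 without day 0 replicate 2 (adjusted p = 0.0761), and by 0.05 when scaled by whole-library totals (adjusted p = 0.801). The segment about 121 to 135 kb into the gene held 8 and 6 PETs at day 0, then 57 and 68 at day 3, over the loops tested, a change of 1.87 ± 0.35 (adjusted p = 1.37e-06). It passed the minimum through the day 3 libraries alone, so a rise was built into its entry. The segment about 184 to 200 kb into the gene held 12 and 4 PETs, then 56 and 35, with only 1 day 0 library at the minimum. It changed by 1.22 ± 0.36 (adjusted p = 0.00351), and the call was lost without day 0 replicate 2 (0.75, adjusted p = 0.171), without day 3 replicate 1 (0.84, adjusted p = 0.197) and when scaled by whole-library totals (0.72, adjusted p = 0.118). The called widths again moved with the result, from 6012 to 11949 bp and from 6583 to 14956 bp for the latter segments. A segment 210 to 226 kb into the gene had no anchor at day 0.

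From the TEAD1 start-site anchor, the strongest contact averaged over the 3 groups went about 261 kb upstream, to chr11:12427455-12443376, with 14 and 19 PETs at day 0, 86 and 84 at day 3 and 16 and 21 for ARID1A. It was higher at day 3 by 1.05 ± 0.26 (edgeR adjusted p = 0.000857), by 0.72 without day 0 replicate 1 (adjusted p = 0.168), and by 0.58 when scaled by whole-library totals (adjusted p = 0.0976). Next to it, chr11:12451227-12479942 held 8 and 2 PETs at day 0, 71 and 70 at day 3 and 15 and 17 for ARID1A. That contact met the minimum of 4 PETs in 2 libraries through day 3, with 1 day 0 library reaching 4, so a rise was built into its entry. It was higher at day 3 by 2.49 ± 0.37 (adjusted p = 1e-09), and lost its call when the libraries were thinned to the smallest (2.37, adjusted p = 0.0812). After thinning, edgeR called 0 of the 9 TEAD1 loops testable between the days. Called widths rose from 7766 to 15048 bp at the first region and from 5319 to 24459 bp at the second. For ARID1A a nearer contact was stronger, at a mean of 60.6 CPM against 40.8 CPM. It lay about 26 kb upstream and held 22 and 4 PETs at day 0, 27 and 19 for H3K27ac at day 3 and 23 and 32 for ARID1A. It did not pass the test between day 0 and day 3 (adjusted p = 0.405) and was higher for ARID1A by 1.90 ± 0.29 (adjusted p = 2.21e-09), where the partner was 21509 bp wide against 4389 bp for H3K27ac. Of the 9 TEAD1 anchors testable between the antibodies, 6 were higher for ARID1A by edgeR and 5 by DESeq2, where 31.5% of all 11052 anchors were called higher and 32.5% lower. Both tools called 0 lower, and edgeR found 0 lower at an unadjusted p under 0.05. Among 50 TEAD1 loops testable there, edgeR called 8 higher, 2 lower and 40 neither, and DESeq2 called 2 higher and 0 lower. Over all 28338 loops edgeR called 14.5% higher and 18.8% lower. The minimum of 4 PETs in both libraries of each group was missed by 5 of the 8 and 1 of the 2. The segment 121 to 135 kb into the gene was higher by 0.97 ± 0.19 (adjusted p = 6.71e-07), and by 1.30 over anchors of similar width (adjusted p = 3.33e-07). The start-site anchor differed by -0.09 ± 0.10 (adjusted p = 0.450), and the segment 210 to 226 kb into the gene by -0.20 ± 0.14 (adjusted p = 0.204). Without either day 3 H3K27ac library in turn both of these were called lower, at -0.23 and -0.37 for the former and -0.45 and -0.38 for the latter.

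Over the anchors of all 7 genes, 7 could be tested between day 0 and day 3, of which 3 were higher and 1 was lower, where 20.7% of all 6251 anchors were called higher and 18.8% lower. For ARID1A against H3K27ac, 16 could be tested, 9 were higher and 2 lower, where 31.5% of 11052 were called higher and 32.5% lower. Of 29 loops testable between day 0 and day 3, 7 were higher and 1 lower, where 8.35% of 16642 were called higher and 6.70% lower. Of 85 loops testable between the antibodies, 14 were higher and 10 lower, where 14.5% of 28338 were called higher and 18.8% lower. Only 4 of the 7 anchors, 14 of the 16 anchors, 13 of the 29 loops and 27 of the 85 loops reached the minimum count in both libraries of each group. Of the called features, 2 of the 4 anchors, 1 of the 11 anchors, 4 of the 8 loops and 15 of the 24 loops did not. Their direction was partly or wholly built into their entry, except where 1 library of each group met the minimum. That held for a TEAD1 loop with 4 and 2 H3K27ac PETs against 11 and 2 for ARID1A. It also held for a TEAD1 loop with 1 and 4 against 6 and 2. All calls are relative to the tested set. Scaled by whole-library totals instead, the median log2 fold change of all anchors moved to -0.51 in the first comparison and -0.66 in the second, and that of all loops to -0.39 and -1.06. Calls of anchors then split 490 higher to 2958 lower instead of 1294 to 1177, and 1831 to 5818 instead of 3477 to 3597. Calls of loops split 684 to 2919 instead of 1389 to 1115, and 2657 to 10022 instead of 4118 to 5314. Under that scaling the genes' anchors split 1 higher to 3 lower and 6 to 5, and their loops 5 to 5 and 10 to 27.

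H3K27ac contacts of AMOTL2 lay almost wholly between segments with an ARID1A anchor, and those of WWTR1 less so. At day 0, 100% of the AMOTL2 PETs in both libraries joined 2 segments that carried an ARID1A anchor at day 3. At day 3 the share was 97.7% and 97.4%. The shares for WWTR1 were 72.7% and 72.7% at day 0 and 68.0% and 65.3% at day 3. CYR61, at 80.7% and 76.6% and then 84.8% and 87.0%, and TEAD1, at 86.8% and 82.9% and then 87.3% and 89.5%, lay between. For YAP1 the share was 100% in all 4 H3K27ac libraries, on 2 to 20 PETs a library. For CTGF it was 100% in both libraries of day 3, and at day 0 it was 0% and 100% on 1 and 2 PETs. Over all loops the shares were 74.7% and 74.9% at day 0 and 75.4% and 75.5% at day 3. These shares are descriptions and were not tested.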

How the data were processed

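Per the submitters' processing notes, HiC-Pro and Bowtie2 were used with hg19. Versions, settings, anchor calling and loop software were not given in the sources used here. Deposited tables list 2 anchors, a raw count of PETs and a number from 0 to 1. That deposited number is a p-value or q-value, with no header to say which, and served in an alternative alone (0.01 or less). Coordinates are printed as deposited, and whether they count from 0 or 1 is not stated.

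Counts were summed with Python 3.11.15 and pandas 2.3.3 over gene windows and 25 kb tiles, over consensus anchors (anchors of all libraries merged at 1 bp of overlap) and over pairs of them. Anchors and loops were tested only where every anchor was called in both groups. The minimum was 10 PETs for windows and anchors and 4 for loops, in at least 2 libraries. Tests used edgeR 4.0.16 with TMM in R 4.3.3, on the 4 libraries compared. They were also run on simulated counts. That simulation did not model anchors called separately for each group or anchor width, so it cannot speak to those limits.

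Text names all 7 genes, the 3 strongest consensus loops of each by mean CPM over groups and up to 4 anchors by the same measure; other loops and the strongest listed contacts were named after their values were seen. The genes and lists were chosen with earlier results of these data known. Other Hippo genes were not analysed here, for want of hg19 positions. Intervals on ratios are exact (Clopper-Pearson) and cover counting error only, since PCR duplicates may remain. Neighbouring genes are those of RefSeq's GRCh38.p14 table; strand came from its promoter table and, for CYR61 and TEAD1, from general knowledge. Alternatives covered scaling, DESeq2 1.42.0, filters, padding, tile size, anchor width and merging, thinning, each library left out and a replicate block.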

Additional observations from a re-analysis of the deposited data

How the results depend on the processing

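Counts below are of the genes' windows, anchors or loops called in either direction. Between day 0 and day 3, 5 windows were called; 3 were with 100 kb tiles, 2 with DESeq2, 2 with deposited values of 0.01 or less and 2 on loops with anchors called in both groups. For ARID1A against H3K27ac, 3 windows were called; 5 were with 100 kb tiles and 5 with 20 kb of padding. The 4 anchors of the first comparison became 2 with DESeq2 and 0 over anchors of similar width, where edgeR found 0 at an unadjusted p under 0.05 and called 499 of all 3487 anchors. The 11 anchors of the second became 7 over anchors of similar width, 6 with deposited values of 0.01 or less and 7 when thinned. The 8 loops of the first comparison became 4 with DESeq2, 5 with anchors merged from the compared groups only, 0 over anchors of similar width (edgeR, 1 at an unadjusted p under 0.05) and 0 when thinned (7 higher and 1 lower unadjusted), where edgeR called 121 of all 9213 loops. The 24 loops of the second became 8 with DESeq2, 8 over anchors of similar width, 37 with library totals, 0 without the filter on low counts, where edgeR found 17 higher and 29 lower unadjusted and called 1 of all 128668 loops, and 4 when thinned. Leaving out 1 library gave 4 to 4 windows, 1 to 3 anchors and 3 to 5 loops in the first comparison, and 3 to 4 windows, 9 to 11 anchors and 5 to 17 loops in the second. With the replicate number as a block, 5 and 3 windows, 4 and 10 anchors and 7 and 16 loops were called. Replicate differences of the compared groups had correlations from 0.00367 to 0.0144. With 1 such difference per group and counting noise at low counts, these values cannot show whether the numbers pair the libraries. Among all features, calls ranged from 2798 to 5152 windows, 499 to 3448 anchors and 121 to 3664 loops in the first comparison, and from 6000 to 10986, 2660 to 7649 and 1 to 12679 in the second. At a deposited value of 0.01 or less, 3 genes instead of 6 had a loop in every library.

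Of 601 recomputed log2 fold changes of named windows, anchors and loops, 496 kept their direction and side of the threshold, 62 lost a call, 31 gained one and 12 changed sign with a call on either side. On loops with anchors called in both groups the last were CYR61 (-0.08) and WWTR1 (-0.32) between day 0 and day 3 and YAP1 (-1.17) between antibodies. Over anchors of similar width they were, at day 3 against day 0, the AMOTL2 anchor (0.03), the TEAD1 start-site anchor (-0.16) and the AMOTL2 upstream loop (0.04). Between the antibodies the TEAD1 window gave -0.14 with 100 kb tiles, -0.45 at a deposited value of 0.01 or less and -0.18 to 0.09 without 1 library; the CYR61 anchor gave -0.46 with library totals; and the TEAD1 segment 121 to 135 kb into the gene gave -0.11 at a deposited value of 0.01 or less. The CYR61 loop to about 116 kb upstream gave 7.50 at that threshold between day 0 and day 3. The cause was not tested. The newer quasi-likelihood method of edgeR and the merge of anchors from the compared groups only were chosen after the data were seen. Depth limits CTGF and YAP1, which rest on 1 to 4 PETs a library at day 0.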
